A study of Homo sapiens with 12 samples.

Results

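Striated muscle myosin heavy chains are the 7 genes MYH3, MYH8, MYH7, MYH6, MYH2, MYH1 and MYH4, chosen by symbol and read by 9 of the 41000 gene probes of the array, which carry 30238 gene names. They were measured in Rh30 cells, an established human alveolar rhabdomyosarcoma line that carries PAX3-FKHR, the fusion of PAX3 with FKHR (now FOXO1). The 3 cultures were untransfected parental Rh30 (WT, grown without puromycin), a control clone stably expressing a non-targeting shRNA (CON) and a clone stably expressing an shRNA against PAX3-FKHR (KD1), with both clones under puromycin at 1 µg/mL. KD1 and CON are 1 clone each, so a difference between clones and an effect of the shRNA cannot be told apart, and neither can the culture in puromycin and the comparison of a clone with WT. RNA was taken 24 h after plating, 2 biological replicates (RNA extracts) per culture, and each pair of cultures was compared within 12 arrays of 2 colors, with a dye-swap pair of arrays for each replicate. The question put to these genes was how their RNA differed between the knockdown clone, the control clone and the parental cells.

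Myosin heavy chain is the motor protein of the thick filament of muscle, and each isoform sets the speed at which its fiber shortens. MYH3 encodes the embryonic isoform and MYH8 the perinatal isoform, both of developing and regenerating skeletal muscle. MYH7 encodes the slow isoform of type I fibers and heart ventricle and MYH6 the alpha isoform of heart atrium, while MYH2, MYH1 and MYH4 encode the fast adult isoforms IIa, IIx and IIb. Skeletal isoforms stand side by side in a cluster on chromosome 17 and the pair MYH6 and MYH7 on chromosome 14. Rhabdomyosarcoma cells resemble muscle precursors that have begun the skeletal muscle program without completing it.

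The 60-base probes that carried a signal are shown here because family members share much of their coding sequence, and the probe decides which gene was read. Capitals mark the longest stretch shared by the MYH3 and MYH2 probes, 12 bases, and by the MYH7 and MYH6 probes, 10 bases. Whether a probe also binds the RNA of another member was not tested.
MYH3: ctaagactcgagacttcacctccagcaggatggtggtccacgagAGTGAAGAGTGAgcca
MYH8: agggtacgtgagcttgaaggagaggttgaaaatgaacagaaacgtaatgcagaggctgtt
MYH7: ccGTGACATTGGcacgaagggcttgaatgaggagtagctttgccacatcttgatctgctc
MYH6: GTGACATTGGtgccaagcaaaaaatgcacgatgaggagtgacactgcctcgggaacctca
MYH2: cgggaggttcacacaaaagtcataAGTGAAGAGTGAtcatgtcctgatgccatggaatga

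By the positions in the files, on build NCBI36 and all on the minus strand, the MYH3 probe lies at chr17:10472691-10473667 and the MYH8 probe at chr17:10236632-10236875. The MYH7 probe lies at chr14:22951880-22952826 and the brightest MYH6 probe at chr14:22921070-22921493. These spans of 977, 244, 947 and 424 bases are longer than the 60 bases of a probe, as for a probe that joins exons across an intron. The MYH2 probe lies at chr17:10365298-10365357, the MYH1 probe at chr17:10336397-10336456 and the MYH4 probe at chr17:10292060-10292119. MYH6 has 3 probes and is represented by the brightest. All 7 genes kept their symbol in RefSeq (GRCh38.p14).

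The level of each probe is given as the processed signal, a background-corrected intensity in scanner units that the authors normalized within each array, and it is compared between cultures but not between probes. Between 63.6% and 72.9% of gene probes were well above background on an array, by the scanner software's own flag. All 6 skeletal myogenic markers (DES, MYOD1, MYOG, CHRNA1, CDH15 and MYF5) were well above background in every culture on at least 4 of its 8 readings, with a summed signal between 131518 and 202396 per extract. By the same rule 3 of 4 smooth muscle markers (all but MYH11, at 0) and 5 of 5 heart muscle markers were, so these lists do not set skeletal muscle apart. PAX3 was lower in KD1 on 4 of 4 arrays in both comparisons, by a log2 ratio of -0.42 ± 0.20 (SE) against CON and -0.39 ± 0.20 against WT (limma, adjusted p = 0.326 and 0.374), with -0.45 in replicate 1 of the latter. FOXO1 was lower on 4 of 4 arrays as well, by -0.42 ± 0.24 and -0.60 ± 0.24 (adjusted p = 0.432 and 0.273), with -0.79 in replicate 1 against WT, and neither probe was placed relative to the junction of the fusion. The second WT extract stands apart: EPCAM, an epithelial adhesion protein, read 166 there, with all 4 readings well above background, and between 3.35 and 3.998, never well above background, in the other 5 extracts. The epithelial keratin KRT19 read 434 in that extract and between 26.3 and 46.6 in the others. The sum of the 4 epithelial markers was 623 there and between 36.2 and 58.0 elsewhere, so the KD1 vs WT and WT vs CON ratios of the genes described are also given for replicate 1, which does not use this extract. In bulk RNA, fewer cells of a type and less RNA per cell cannot be told apart. Each value after ± is a standard error (SE) of the limma fit. It is pooled over the 3 comparisons and moderated across probes, so it can be smaller than the spread of the 2 replicates.

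MYH3, the embryonic isoform, was well above background on every array in every culture, and a high level in 1 of the 2 KD1 extracts set it off. The first KD1 extract read 873, 911, 930 and 1047 on its 4 arrays, and the second 5050, 5424, 6243 and 7146. The CON extracts had geometric means of 894 and 1650.3, and the WT extracts 1173 and 781. The first KD1 extract lies between the 2 WT extracts, so the cultures overlap, and only the second KD1 extract is above all others. The KD1 vs CON log2 ratio was 0.10 in replicate 1 and 1.73 in replicate 2, a mean of 0.91 ± 0.60 (limma SE, adjusted p = 0.498). Against WT it was -0.18 and 2.85, a mean of 1.34 ± 0.61 (adjusted p = 0.320), so its sign turned between replicates. WT vs CON turned as well, with 0.36 and -1.18 (mean -0.41 ± 0.60, adjusted p = 0.791). The SD of the 2 replicate ratios was wider, at 1.15, 2.14 and 1.09 in these comparisons (n = 2). None of the differences of MYH3 passed the test, and KD1 vs WT passed only with a floor and median centering (adjusted p = 0.00274).

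MYH8, the perinatal isoform, was the member with the widest difference and the one called in a KD1 comparison, under some of the settings tried. In the first KD1 extract it read 82.7, 101, 102 and 116, and in the second 2183, 2588, 2756 and 4015. In CON it read between 25.4 and 38.2 in the first extract and between 60.1 and 197 in the second. In WT it read 10.502 to 21.1 in the first extract, with 1 of 4 readings well above background, and between 22.0 and 205 in the second. Within each replicate KD1 was above both other cultures on every array, but the first KD1 extract overlaps the second extracts of CON and WT. KD1 vs WT was 2.50 in replicate 1 (5.66-fold) and 4.20 in replicate 2 (18.3-fold), a mean of 3.35 ± 0.47 on the log2 scale, and MYH8 rose (10.2-fold, adjusted p = 0.0278). The SD of these 2 replicate ratios was 1.20. The call was lost with normexp and loess (log2 ratio 1.88), with no filter, with no replicate block (3.999) and with the residual degrees of freedom left as limma fits them (adjusted p = 0.0906). On the 2 arrays of replicate 1 it entered this test through KD1 alone, since WT was under the negative-control limit there. KD1 vs CON was 1.65 and 3.92, a mean of 2.78 with an SD of 1.61 (n = 2) and a higher signal in KD1 on 4 of 4 arrays. It was not tested there, because on 1 of the arrays the background-subtracted signals of 38.0 and 17.6 were under the limit of 40.6 set by the negative controls. With no filter its adjusted p was 0.0818 against CON and 0.0588 against WT. WT vs CON was -1.07 and -1.25, lower in WT on 4 of 4 arrays (mean -1.16 ± 0.47, adjusted p = 0.283, and 0.0281 with the comparison fitted alone).

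The readings of MYH8 in the second CON and WT extracts differed between arrays. The second WT extract read 30.9 and 22.0 on the arrays it shared with CON and 151 and 205 on those it shared with KD1. The second CON extract read 60.1 and 63.4 beside WT and 133 and 197 beside KD1. Both were higher on the arrays that held the second KD1 extract, which lie on another slide, and the part of the slide or of the partner channel in this was not tested.

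MYH7, the slow isoform, was well above background on all arrays. The first KD1 extract read 1527, 1552, 1690.0 and 1966 and the second 9759, 11881, 13066 and 15327. CON read between 1307 and 1605 in its first extract and between 3783 and 4642 in its second, and WT between 705 and 1388 over both. KD1 was therefore above WT in every reading, whereas the first KD1 extract lies below the second CON extract. KD1 vs WT was 1.27 and 3.16, a mean of 2.22 ± 0.43 (4.66-fold, 4 of 4 arrays, adjusted p = 0.0705), which did not pass the test but did so with a floor and median centering (adjusted p = 5.56e-09) and with the comparison fitted alone (0.0267). KD1 vs CON was 0.20 and 1.47 (mean 0.83 ± 0.42, 4 of 4 arrays, adjusted p = 0.372). WT vs CON was -0.997 and -2.11, lower in WT on 4 of 4 arrays (mean -1.55 ± 0.43, adjusted p = 0.140), and passed under the same pair of settings (2.45e-05 and 0.0178).

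MYH6, the atrial isoform, was dim but readable in the clones. Its brightest probe read between 24.2 and 29.9 in the first KD1 extract and between 119 and 185 in the second, and between 24.6 and 45.7 over both CON extracts. In WT it read between 4.69 and 23.0 and was well above background in 1 of 8 readings. All WT readings lie below all CON and KD1 readings, so WT was the low culture for this probe. In WT vs CON, where WT was well above background on none of the 4 arrays and CON on 3, the log2 ratio was -2.29 and -2.25, and the test called MYH6 lower in WT (adjusted p = 0.0383). The probe entered this test through CON, the culture where it is high, since WT was above the negative-control limit on 1 of 4 arrays, and the call was lost with each alternative but the series table and the comparison fitted alone. Measured against the background limit rather than the dim reading, CON was at least 2.16-fold higher. KD1 vs WT was 2.05 and 3.21 with WT well above background on 1 of 4 arrays, and KD1 vs CON was 0.09 and 1.77; neither was tested, since some arrays fell under the negative-control limit. The other MYH6 probes did not show this: one, at chr14:22924019-22924078, was well above background in 2 of 24 readings, both of the second KD1 extract, and the other, at chr14:22946250-22946648, in none. For the former of these the WT vs CON log2 ratio was -0.63 and -0.04, so the call rests on 1 of 3 probes.

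The fast adult isoforms were low or not seen. MYH2, the IIa isoform, read between 45.6 and 58.2 in the second KD1 extract, with all 4 readings well above background, and between 8.75 and 20.5 in the first, with 2 of 4. In CON it read between 13.4 and 36.2 and in WT between 4.79 and 17.9, well above background in 4 and 1 of 8 readings. Only the second KD1 extract is above all readings of the other cultures, and no comparison was tested. KD1 vs WT was 0.78 and 2.41, KD1 vs CON -0.38 and 1.01, and WT vs CON -2.54 and -0.95, where CON was at least 1.42-fold higher. MYH1 and MYH4, the IIx and IIb isoforms, were well above background in 0 of 24 readings each, with signals between 2.30 and 4.88 and between 2.03 and 4.45. Their log2 ratios had opposite signs on the 2 arrays of each dye-swap pair, and they have no measured direction.

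**Figure D1:**
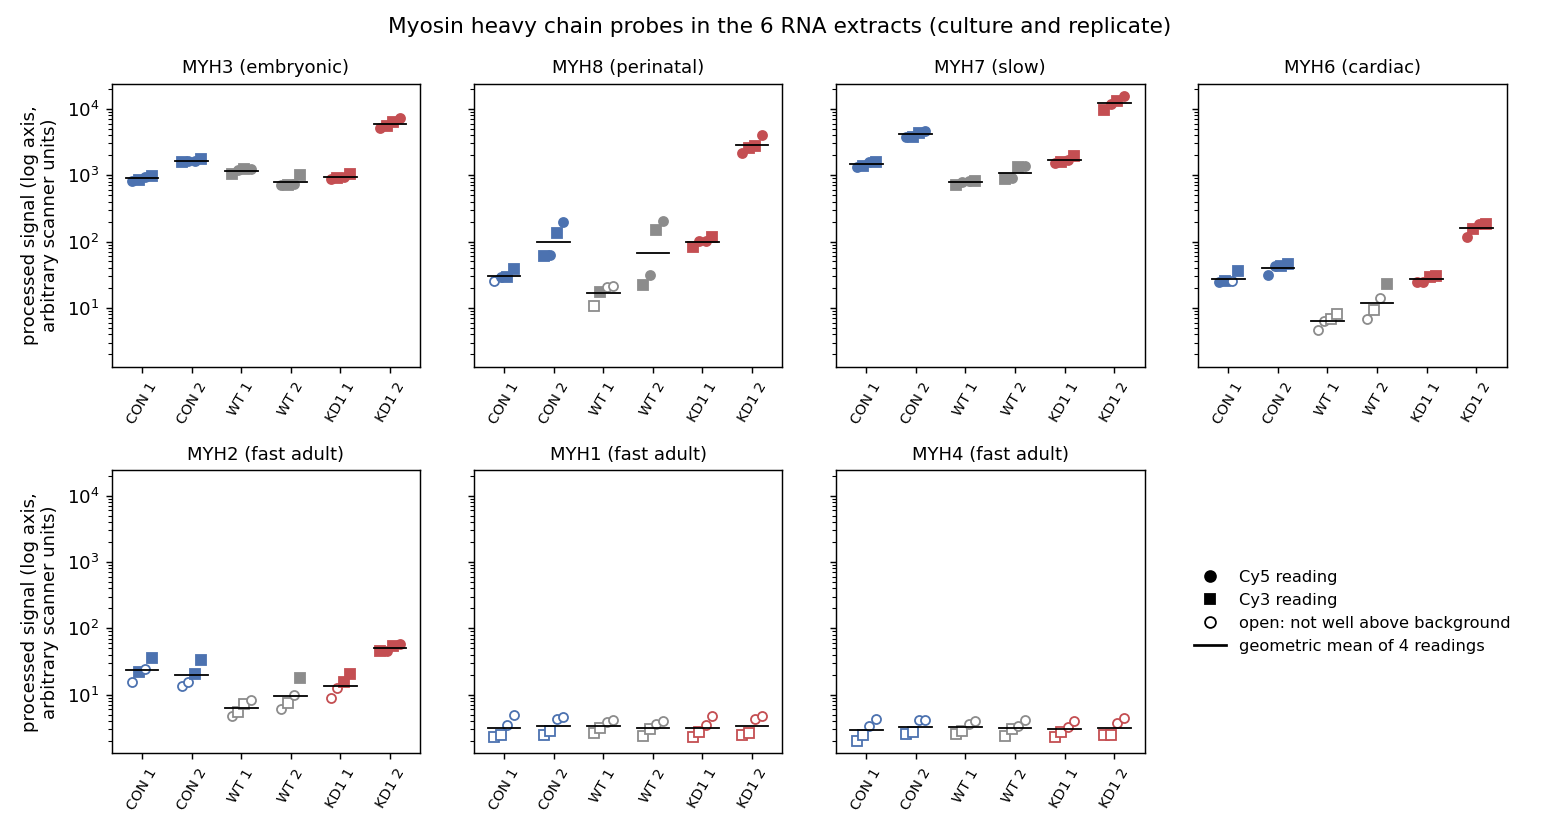
Processed signal (log axis, scanner units) of the brightest probe of each of the 7 genes in the 2 extracts of CON, WT and KD1, with 4 readings per extract, round for Cy5 and square for Cy3, open where not well above background, and a line at the geometric mean. The second KD1 extract is the highest for MYH3, MYH8, MYH7, MYH6 and MYH2, with MYH8 between 2183 and 4015, while MYH1 and MYH4 stay under 5 throughout.

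Of the members, 1 of 3 tested probes was called in KD1 vs WT (MYH8, higher), where the test called 1.05% of 24884 probes. On the arrays of replicate 1 MYH8 entered this test through KD1, the culture where it is high. The counts of this comparison that include MYH8 are therefore not a fair measure against the share of all probes. In WT vs CON 1 of 4 was called (MYH6, lower, which CON brought into the test), against 1.37% of 26595 probes. With the residual degrees of freedom as fitted, neither was called. In KD1 vs CON 0 of 2 was called by limma, with 0 at an unadjusted p under 0.05 and 0 under each alternative fit, against 1.79% of 21937 probes. An unadjusted p under 0.05 was reached by 16.5% of all tested probes in WT vs CON and by 17.2% in each KD1 comparison, which is the background for such counts here and for the lists that follow. Among the members 2 of 3 reached it by limma in KD1 vs WT (MYH8 and MYH7) and 3 of 4 in WT vs CON (MYH8, MYH7 and MYH6). The limits of the filter given above for MYH8 and MYH6 hold for these counts too. By size alone, a rise of at least 2-fold in both replicates of KD1 vs WT was seen for 3 of the 9 probes, those of MYH8, MYH7 and MYH6, 2 of them among the 3 tested, where 0.715% of all tested probes did so. In KD1 vs CON it was MYH8 alone, which was not tested, against 0.948% of tested probes. A fall of at least 2-fold in both replicates of WT vs CON was seen for MYH8 and MYH6, 2 of the 4 tested, against 1.11%. The 2 KD1 comparisons share the KD1 extracts and those with WT share the WT extracts, so these counts are not independent, and 7 genes chosen by name are few. The median log2 ratio of all tested probes lay between -0.029 and 0.0065 over these comparisons.

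**Figure D2:**
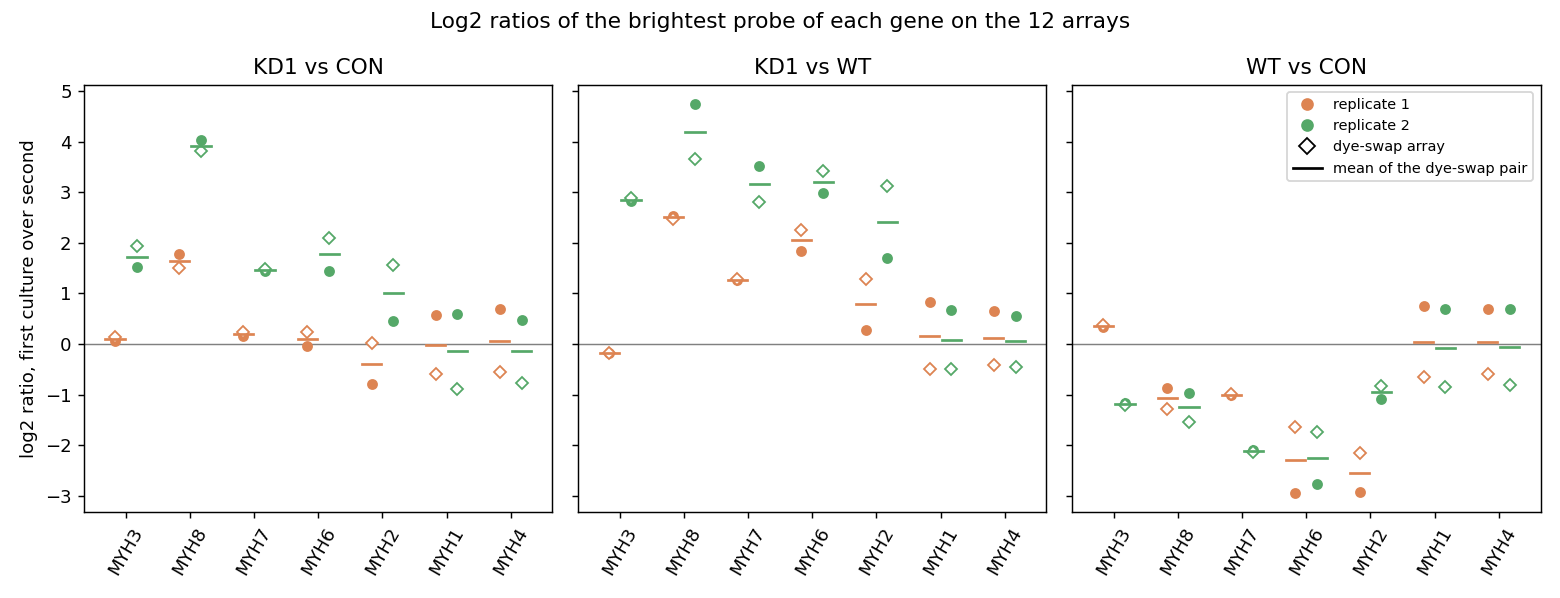
Log2 ratio of the first over the second culture on each array for the brightest probe of each gene, in a panel per comparison, with replicate 1 and 2 in separate colors, open diamonds for dye-swap arrays and a line at the mean of each pair. In KD1 vs WT the replicate means of MYH8 are 2.50 and 4.20 and those of MYH3 -0.18 and 2.85, while MYH1 and MYH4 take opposite signs on the arrays of a pair.

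The 2 KD1 extracts differed widely in these genes. Levels centered on the median of each array and channel differed between the KD1 extracts by 4.62 on the log2 scale for MYH8 (24.5-fold), 2.68 for MYH7 (6.41-fold), 2.46 for MYH3 (5.48-fold), 2.35 for MYH6 (5.11-fold) and 1.69 for MYH2 (3.22-fold), each higher in the second. All 3 members tested in KD1 vs WT were at least 4-fold apart between the KD1 extracts, as were 0.76% of the 24884 probes. Of these, MYH8 had entered that test in replicate 1 through KD1 alone, whereas MYH3 and MYH7 were above the limit in both cultures on all arrays. Over 21870 probes the 1st and 99th percentiles of this difference were -1.18 and 1.54. Between the CON extracts the difference was 1.79 for MYH8, 1.56 for MYH7 and 0.95 for MYH3, with percentiles of -0.97 and 1.08. Between the WT extracts it was 2.13 for MYH8, 0.62 for MYH7, 1.04 for MYH6 and -0.46 for MYH3, with percentiles of -1.21 and 0.95. The KD1 extracts were hybridized on separate slides, so extract and slide cannot be told apart for KD1. On those slides the WT signal of MYH3, read on the same arrays as KD1, was 1049.9 and 1190.2 on the first and 1007 and 738 on the second. The first slide held the first WT extract and the second slide the second, so extract and slide change together here too. The WT signal of MYH7 was 705 and 805 on the first and 1343 and 1388 on the second. The second WT extract read 892 and 867 beside CON on another slide, so MYH7 in WT was higher beside the second KD1 extract. Signals were normalized only within an array, so readings of different slides can also differ in array brightness. On the slide that held both CON extracts, MYH7 in CON read 1605 and 1604 in the first and 3802 and 3783 in the second.

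**Figure D3:**
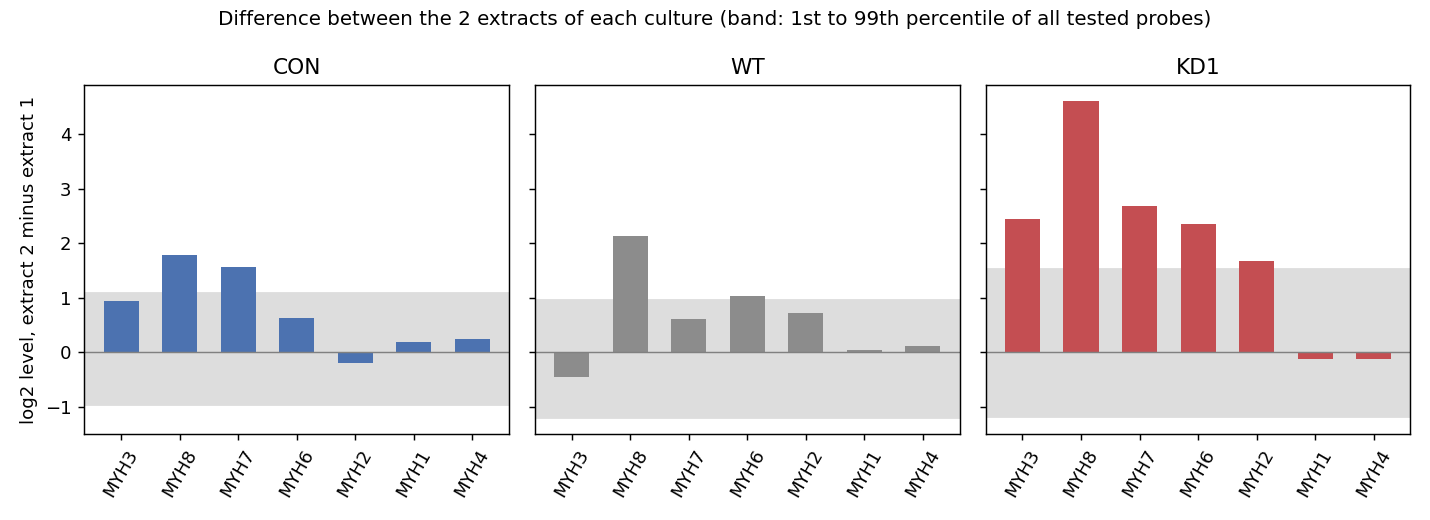
Difference in median-centered log2 level between the second and first extract of CON, WT and KD1 for the brightest probe of each gene, as bars from 0, over a band from the 1st to the 99th percentile of 21870 probes. In KD1 the bars of MYH3, MYH8, MYH7, MYH6 and MYH2 rise above the band, which ends at 1.54, in CON those of MYH8 and MYH7 do, and in WT those of MYH8 and MYH6 do. The MYH8 bars of CON and WT include readings from the slide of the second KD1 extract, which were higher. MYH6 in WT was well above background in 1 of 8 readings.

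The 3 comparisons could be set against each other, since KD1 vs CON minus KD1 vs WT should give WT vs CON. The indirect value exceeded the direct one by -0.07 and 0.06 on the log2 scale in the 2 replicates for MYH3 and by -0.08 and 0.41 for MYH7. For MYH8 it did so by 0.21 and 0.97, for the brightest MYH6 probe by 0.33 and 0.81 and for MYH2 by 1.37 and -0.45. MYH3 and MYH7, the members that passed the filter in all comparisons, closed to within 0.41 in both replicates, and the others reached 0.81 to 1.37 in one of them.

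The partners of the heavy chain in the thick filament were called in the same comparisons as the members. Of 29 listed genes (light chains, myosin binding proteins, titin, M-band proteins and the chaperones and ligases of the heavy chain), 23 were tested in KD1 vs WT, and 3 rose and 0 fell: MYBPH, a myosin binding protein, by a log2 ratio of 2.68 ± 0.30 (adjusted p = 0.0109), SMYD1, a methyltransferase of myofibril assembly, by 3.60 ± 0.52 (adjusted p = 0.0297), and MYL1, a fast light chain, by 2.46 ± 0.40 (adjusted p = 0.0469), where 1.05% of all tested probes were called. In replicate 1 these ratios were 2.31, 2.51 and 1.66. The list's median log2 ratio was 1.00, against 0.0065 for all tested probes, and 9 of the 23 were at least 2-fold higher in both replicates (0.715% of all tested probes). In WT vs CON 4 of 25 fell and 0 rose: SMYD1 with a log2 ratio of -4.66 ± 0.52 (adjusted p = 0.0101), MYBPH with -3.10 ± 0.30 (adjusted p = 0.00550), MYL1 with -2.51 ± 0.40 (adjusted p = 0.0373) and the embryonic light chain MYL4 with -1.90 ± 0.23 (adjusted p = 0.0139), where 1.37% of all tested probes were called. In replicate 1 these ratios were -4.44, -3.22, -2.39 and -2.17. With the residual degrees of freedom as fitted, MYBPH and MYL4 in WT vs CON were still called and the others were not. Under normexp and loess none of these was called. SMYD1, well above background in 5 of 8 WT readings, then shrank to -1.88 (WT vs CON) and 1.53 (KD1 vs WT). The size of its ratios thus depends on the processing. MYBPH stayed at -2.97 and 2.59, MYL1 at -2.35 and 2.29, and MYL4 at -1.84 against CON. In KD1 vs CON 0 of 21 was called, with 6 at an unadjusted p under 0.05, and the median was 0.22 (all probes, -0.014), with -0.31 in replicate 1 and 0.52 in replicate 2. The called partners were thus low in WT. MYBPH, SMYD1 and MYL1 were at -1.15, -1.65 and -0.84 in replicate 1 of KD1 vs CON and at 0.11, 0.63 and 0.82 in replicate 2.

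**Figure D4:**
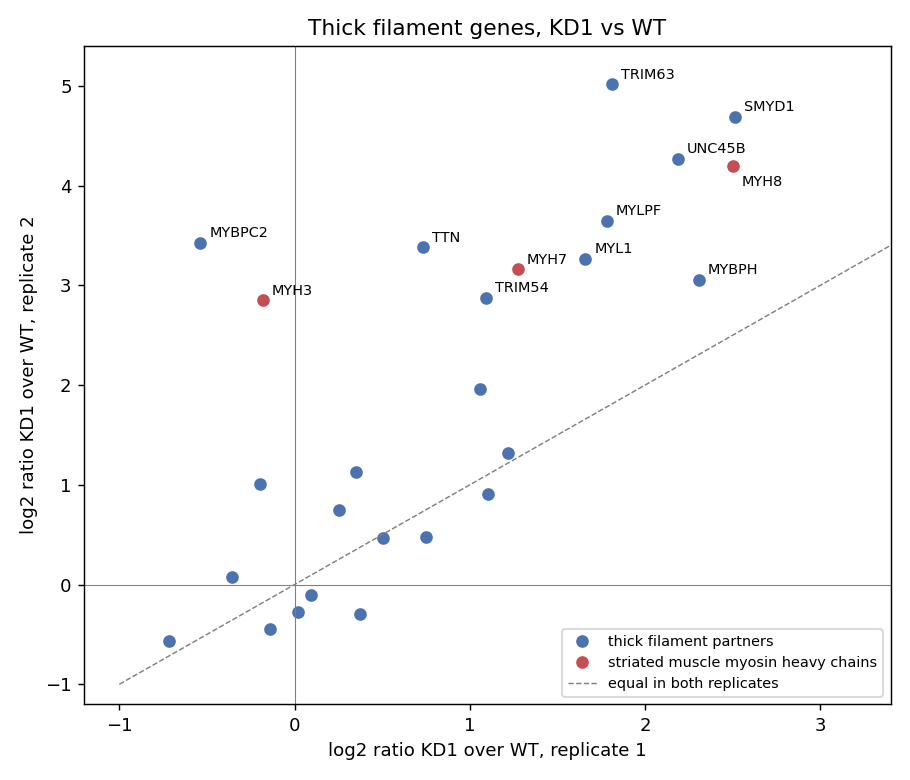
Log2 ratio of KD1 over WT in replicate 1 (horizontal) and replicate 2 (vertical) for the 23 tested thick filament partners and the 3 tested heavy chains, with a dashed line where both are equal. MYH3, MYH8 and MYH7 lie above the line, with replicate 2 values of 2.85, 4.20 and 3.16, as do TRIM63, UNC45B, TTN and MYBPC2 among the partners.

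The difference between the KD1 extracts was shared by part of this list. Of the 23 partners 8 were at least 4-fold apart, against 0.76% of all tested probes, all higher in the second extract, among them TRIM63, a ligase that marks myosin for degradation (22.5-fold), UNC45B, the muscle myosin chaperone (13.5-fold), the fast binding protein MYBPC2 (12.4-fold), SMYD1 (10.1-fold), the fast light chain MYLPF (7.15-fold), TRIM54 (6.97-fold) and titin (TTN, 4.79-fold). The non-muscle chaperone UNC45A was lower in the second extract (1.47-fold). Between the CON extracts MYBPC2 (2.38), SMYD1 (1.22), TRIM63 (1.20) and UNC45B (1.17) were also higher in the second, above the 99th percentile of 1.08. TRIM54 (0.90), MYLPF (0.50) and TTN (0.21) were not above it. Between the WT extracts SMYD1 (1.13) and MYLPF (0.96) passed the percentile of 0.95, while MYBPC2 (-0.33) and TTN (-0.49) were lower in the second.

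Of the other heavy chains, 7 were on the array, and limma called 0 of the 3 or 4 tested in each comparison, with 3 of KD1 vs WT, 1 of WT vs CON and 0 of KD1 vs CON at an unadjusted p under 0.05. MYH7B, a chain related to the slow isoform, had a KD1 vs WT log2 ratio of 1.49 and 1.33 (adjusted p = 0.0722) and differed between the KD1 extracts by 0.17. The non-muscle chains MYH9, MYH10 and MYH14 had KD1 vs WT means of -0.57, -0.60 and -0.17 (-0.54, -0.52 and -0.21 in replicate 1) and KD1 extracts that differed by less than 0.49. MYH13, a chain of extraocular muscle, was dim, well above background in 6 of 8 KD1 readings and 2 of 8 each in CON and WT, and was not tested. Its KD1 vs CON log2 ratio was 2.25 and 2.53 (higher on 4 of 4 arrays, adjusted p = 0.0242 with no filter), and KD1 vs WT was 0.28 and 1.49. WT vs CON was 0.59 and 0.87, so the comparisons of this dim probe did not close in replicate 1. None of the 4 tested chains had KD1 extracts at least 4-fold apart.

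Among 20 regulators of the heavy chain genes, 0 of 17 was called in KD1 vs WT by limma (6 at an unadjusted p under 0.05) and 0 of 16 in KD1 vs CON (1 at an unadjusted p under 0.05). In WT vs CON 1 of 17 was called, MYOG, the factor of terminal myogenic differentiation, which fell in WT with a log2 ratio of -1.73 ± 0.22 (-1.96 in replicate 1, adjusted p = 0.0185). This call was lost with normexp and loess and with no replicate block. The KD1 vs CON log2 ratio of MYOG was -1.35 and -0.92 (adjusted p = 0.0508). MYOD1, which commits cells to the muscle lineage, was at 0.21 and -0.16 against CON and 0.01 and 0.13 against WT. MYF5, an early myogenic factor, had a KD1 vs WT log2 ratio of -1.42 and -2.42 (adjusted p = 0.0689). Only PPARGC1A, a coactivator of slow fiber genes, had KD1 extracts at least 4-fold apart (4.16-fold), 1 of 17. Its CON extracts differed by 1.14 on the log2 scale, also higher in the second. Among markers of blood cells CD53 rose in KD1, by 3.47 ± 0.44 against CON and 3.41 ± 0.45 against WT (adjusted p = 0.0151 and 0.0231, and 0.0586 and 0.0816 with the residual degrees of freedom as fitted), with 2.56 in replicate 1 against WT, while PTPRC, the defining marker of white blood cells, was well above background in none of its readings. The summed signal of the 4 blood markers was 392 and 671 in KD1 and between 79.6 and 134 in the other cultures. CD53 alone read 324 and 594 in KD1 and between 18.5 and 76.4 in the others, so it made up most of the KD1 sums. The part of this signal in the result was not tested.

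Most genes next to the heavy chains were not called. Within 1 Mb of the chromosome 14 probes limma called 0 of 65 tested genes in KD1 vs WT, with 5 at an unadjusted p under 0.05 and a median log2 ratio of -0.018. It called 0 of 67 in WT vs CON (9 at an unadjusted p under 0.05, median -0.15) and 0 of 59 in KD1 vs CON (10 at an unadjusted p under 0.05, median -0.25). Within 1 Mb of the chromosome 17 probes GAS7 was the only gene called, of 4 tested in KD1 vs CON (-3.45 ± 0.20, adjusted p = 0.000395) and of 8 in WT vs CON (-2.80 ± 0.21, -2.94 in replicate 1, adjusted p = 0.00207), so it was high in CON. GAS7 did not pass the filter in KD1 vs WT, the comparison without CON, so CON may have brought it into both tests. With normexp and loess its log2 ratios were -0.97 in KD1 vs CON and -1.15 in WT vs CON, and neither was called. In KD1 vs WT 0 of 5 was called by limma, with 0 at an unadjusted p under 0.05 and ratios between -0.25 and 0.44.

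Likeness of pattern was taken as Pearson's r over the 6 extracts, among 15706 genes, and given for MYH3 and MYH7, the members that could be tested in all 3 comparisons. The genes most like MYH3 were DNAH10, a dynein of cilia (r = 0.998), SIX4, a homeobox factor of muscle (0.994), and FLJ39739 (0.992). Only DNAH10 moved on the scale of MYH3, with KD1 vs WT ratios of -0.00051 and 2.80, whereas SIX4 had -0.0015 and 0.28. The genes most like MYH7 were APH1A, a subunit of gamma-secretase (0.992), FAM78A (0.992) and SNHG5 (0.990). Their KD1 vs WT means were 0.62, 0.56 and 0.52, with 0.42, 0.018 and 0.16 in replicate 1. With 6 extracts and this many genes, high r values are a description of these libraries.

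Promoters are shown for MYH8, the member called in KD1 vs WT, and MYH2, a fast isoform of the same cluster. By the probe positions MYH4 and MYH1 lie between them. Each is the 250 bases before the gene start from RefSeq (GRCh38.p14), minus strand, with E boxes (CANNTG) and MEF2 sites in capitals, both strands searched and no overlap between them. MYH8 is at chr17:10421951-10422200 and MYH2 at chr17:10549659-10549908. MYH3 and MYH7 were not in the table used here.
MYH8: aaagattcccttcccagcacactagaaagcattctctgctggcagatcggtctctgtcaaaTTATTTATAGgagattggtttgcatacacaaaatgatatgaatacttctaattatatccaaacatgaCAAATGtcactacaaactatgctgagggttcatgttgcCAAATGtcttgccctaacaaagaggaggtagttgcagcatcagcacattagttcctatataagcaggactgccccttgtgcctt
MYH2: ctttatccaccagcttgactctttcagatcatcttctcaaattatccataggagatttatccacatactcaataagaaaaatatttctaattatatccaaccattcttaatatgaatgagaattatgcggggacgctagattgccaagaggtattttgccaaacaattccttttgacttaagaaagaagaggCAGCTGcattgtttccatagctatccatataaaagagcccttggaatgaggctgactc

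The MYH8 window holds 2 E boxes, starting 122 and 84 bases before the gene start, and 1 MEF2 site, starting 189 bases before it. The MYH2 window holds 1 E box, 58 bases before the start, and no MEF2 site, and the windows of MYH1 and MYH6 hold no E box. The MYH4 window holds 2 E boxes and no MEF2 site. Of 35116 promoters 61.8% hold an E box and 2.80% a MEF2 site. MYH1, which no array read well above background, holds a MEF2 site as well.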

How the data were processed

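Gene expression was measured on 12 Agilent 4x44K arrays of 2 colors (6 extracts, 4 arrays each, 500 ng of RNA). The authors extracted spots with Agilent Feature Extraction 10.5.1.1 and deposited linear intensity values, processed after background subtraction and lowess within the array, and a log10 ratio of red over green. The deposited series table holds the same ratio on the log2 scale (largest difference 5.35e-06), with every array column matched (0 left over). Columns of comparisons made by the authors were not used.

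Log2 ratios of the processed intensities were turned so that the first culture is the numerator and averaged over spots without outlier flags and over each dye-swap pair. Probes entered a test where the background-subtracted signal passed the 99th percentile of 153 negative controls in at least 1 channel of all 4 arrays of a comparison. limma 3.58.1 in R 4.3.3 was run with a coefficient per comparison and with Benjamini-Hochberg adjustment over all tested probes (threshold 0.05). The residual degrees of freedom were set by hand to 2, not the 3 that limma gives, because the comparisons share extracts, and every adjusted p and count of calls depends on this choice. Where all arrays of a comparison had a culture not well above background, a lower bound of the fold was set against the lowest signal well above background, after quantile scaling of average intensity between arrays, per channel and open to dye bias. The number of arrays limits the precision, and no spot was saturated.

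The members and gene lists were chosen with earlier results of these data known. A gene is represented by its brightest probe. Genes are named if they are members, called list genes, called neighbors within 1 Mb, the 3 nearest in pattern, PAX3 or FOXO1. List genes with KD1 extracts at least 4-fold apart, MYH7B, MYH9, MYH10, MYH13, MYH14, UNC45A, MYOD1, MYF5 and the epithelial and blood markers were named after their values were seen, and 1 thick filament gene is counted but not reported here by name. The alternatives were normexp (offset 50) with loess, a floor at the negative-control limit with median centering, the series table, no filter, separate channels without the replicate block, each comparison alone and, chosen after seeing the data, the residual degrees of freedom as fitted.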

Additional observations from a re-analysis of the deposited data

How the results depend on the processing

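The count of heavy chain probes called in KD1 vs WT (1, MYH8) became 0 with normexp and loess, 0 with no filter, 0 with no replicate block, 0 with the residual degrees of freedom as fitted, 3 with a floor and median centering (MYH3, MYH8 and MYH7) and 2 with the comparison fitted alone (MYH8 and MYH7). In WT vs CON (1, MYH6) it became 0 with normexp and loess, 0 with no filter, 0 with no replicate block, 0 with the residual degrees of freedom as fitted and 3 with the comparison fitted alone (MYH6, MYH8 and MYH7), and with the floor it stayed 1 but was MYH7 in place of MYH6. In KD1 vs CON it was 0 in each fit. Over all probes, 393 calls in KD1 vs CON became 26, 1018, 394, 254, 233, 388 and 381 under normexp and loess, floor and median centering, series table, no filter, no replicate block, the comparison alone and the degrees of freedom as fitted. In WT vs CON 365 became 2, 1024, 368, 200, 134, 946 and 233. For KD1 vs WT 261 became 1, 960, 259, 183, 144, 368 and 151. Of 12 calls of other named genes 8 were kept with no filter, 5 with the degrees of freedom as fitted, 3 with no replicate block and 0 with normexp and loess. All 12 were kept with the floor, the series table and the comparison fitted alone. The cause was not tested. Floor and median centering moved the median of all probes to -0.24 in KD1 vs CON and -0.18 in WT vs CON, and the share of calls that were higher from 56.7% to 38.9% in WT vs CON, from 43.3% to 23.6% in KD1 vs CON and from 27.2% to 47.2% in KD1 vs WT.

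MYH8 in KD1 vs WT kept its sign throughout, with an adjusted p between 6.17e-16 and 0.299 and 0.299 without the pairing of replicates (no replicate block, log2 ratio 3.999). MYH6 in WT vs CON was -0.23 with normexp and loess and -0.72 with the floor. Replicate deviations correlated at 0.54 between KD1 and CON, -0.069 between KD1 and WT and -0.019 between CON and WT. With each replicate left out, chosen after seeing the data, the probes at least 2-fold higher numbered 4 to 6 in KD1 vs WT and 1 to 6 in KD1 vs CON, and those at least 2-fold lower numbered 3 to 4 in WT vs CON. These counts hold untested probes. The 4 include the MYH6 probe at chr14:22946250-22946648, never well above background. Both counts of 6 include the MYH6 probe at chr14:22924019-22924078, well above background in 2 KD1 readings alone. MYH3 ran from -0.18 without replicate 2 to 2.85 without replicate 1 in KD1 vs WT, and from 0.36 to -1.18 in WT vs CON. No fit across probes is left with 1 replicate, so calls were not recounted.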
